A study of Rattus norvegicus with 6 samples.

Results

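The AP-1 and immediate early genes described here were the 10 genes Fos, Fosb, Fosl1, Fosl2, Junb, Jund, Atf3, Egr1, Egr3 and Myc, out of 30957 genes in the mRNA count table. They were taken from the table by gene name, and all 10 passed the filter on low counts. Sciatic nerves of 6 Sprague-Dawley rats about a month old were sequenced as total RNA, 1 library per rat and 2 rats per group. The control group is called a normal control in the labels, and in the study's methods the same operation was done without the clamp. The D4 group was taken 4 days and the D7 group 7 days after the left sciatic nerve had been crushed with forceps. Libraries are named a and b within their group, and these letters do not join rats of different groups.

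AP-1 is a dimer of basic leucine zipper proteins. Fos family proteins (Fos, Fosb, Fosl1, Fosl2) cannot bind DNA alone and pair with a Jun family protein (Jun, Junb, Jund), and Atf3 pairs with either Jun proteins or itself. Many of these genes are immediate early genes, which a stimulus switches on without new protein synthesis, often through serum response factor bound at CArG boxes in their promoters. The zinc finger factors Egr1, Egr2 and Egr3 and the growth regulator Myc are also counted among the immediate early genes. In peripheral nerve, Jun is known as a regulator of the repair state of Schwann cells after injury, Egr2 as the factor that drives myelin genes, and Atf3 as an injury marker of Schwann cells and axotomized neurons.

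Promoter sequences from RefSeq (GRCr8) were found for 6 of the 10 members, Fosb, Fosl1, Fosl2, Junb, Jund and Egr1, and for the family relative Egr2. Fos, Atf3, Egr3 and Myc were not matched. Shown are the 250 bases before the start of Egr1, Egr2, Jund and Fosl1. Egr1 and Egr2 are shown because their counts went apart after the crush. Jund held the most matches, and Fosl1 was the member with the largest change. The windows are chr18:26736828-26737077 (plus strand) for Egr1, chr20:21054442-21054691 (minus strand) for Egr2, chr16:18769772-18770021 (minus strand) for Jund and chr1:212183635-212183884 (plus strand) for Fosl1, each written 5′ to 3′ on the strand of the gene. Capitals mark matches to a CArG box, TGACGTCA, the AP-1 letters TGACTCA, GCGNGGGCG, the E-box CACGTG, the TATA letters TATAAA or the STAT letters TTCNNNGAA, searched on both strands.
Egr1: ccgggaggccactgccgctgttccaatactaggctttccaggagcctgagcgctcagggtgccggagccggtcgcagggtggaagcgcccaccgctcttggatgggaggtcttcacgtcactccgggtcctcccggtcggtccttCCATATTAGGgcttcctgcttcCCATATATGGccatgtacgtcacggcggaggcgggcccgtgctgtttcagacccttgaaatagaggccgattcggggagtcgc
Egr2: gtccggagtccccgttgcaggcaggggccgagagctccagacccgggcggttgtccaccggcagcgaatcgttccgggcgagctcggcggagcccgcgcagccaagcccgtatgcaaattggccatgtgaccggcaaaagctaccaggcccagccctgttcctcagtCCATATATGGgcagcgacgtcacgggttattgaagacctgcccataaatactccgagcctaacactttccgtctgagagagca
Jund: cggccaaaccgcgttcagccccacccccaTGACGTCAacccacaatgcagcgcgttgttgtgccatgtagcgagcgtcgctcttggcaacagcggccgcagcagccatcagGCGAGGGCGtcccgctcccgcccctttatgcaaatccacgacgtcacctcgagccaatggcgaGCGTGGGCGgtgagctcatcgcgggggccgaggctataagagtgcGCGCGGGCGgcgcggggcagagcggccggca
Fosl1: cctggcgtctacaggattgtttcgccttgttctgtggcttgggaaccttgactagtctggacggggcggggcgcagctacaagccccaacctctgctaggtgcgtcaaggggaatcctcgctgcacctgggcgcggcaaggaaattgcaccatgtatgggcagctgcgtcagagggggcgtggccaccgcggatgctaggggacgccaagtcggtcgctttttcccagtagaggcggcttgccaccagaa

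Counted backwards from the start, with the last base before it as -1, Egr1 held CArG boxes at -105 to -96 and at -83 to -74. Egr2 held 1 CArG box, also at -83 to -74, and it had the same letters as the nearer box of Egr1. CArG boxes stood in 1.50% of the 33469 promoters in the RefSeq table and in 1 of the 6 members. Jund held TGACGTCA, the cyclic AMP response element, at -221 to -214, which 1.59% of all promoters held. GCGNGGGCG, the letters bound by Egr factors, stood 3 times in Jund, at -139 to -131, -76 to -68 and -31 to -23, and once in Fosl2 at -249 to -241, against 4.29% of all promoters. The TATA letters were found in Fosb at -180 to -175, on the opposite strand, and in Junb at -49 to -44, against 12.9% of all promoters. The AP-1 letters TGACTCA stood in 0 of the 6 members and in 4.05% of all promoters, the E-box in 0 and in 5.59%, and the STAT letters in 0 and in 7.67%. The Fosl1 window held none of the letters searched. No matches overlapped. These are matches of letters in a window of a newer assembly than that of the files, and none is a measured binding site.

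The mRNA libraries held between 18727255 and 25350886 fragments counted on genes, and 15195 of the 30957 genes were tested. Values per library are given as normalized CPM, the counts divided by a library total that TMM factors of 0.863 to 1.08 had scaled. Differences were tested with edgeR's quasi-likelihood test in 1 fit of the 6 libraries. A gene was called a differentially expressed gene (DEG) with a Benjamini-Hochberg adjusted p-value under 0.05 over all genes tested and a change of at least 2-fold. In the control vs D4 group 11.2% of all genes tested were called higher and 10.7% lower, and in the control vs D7 group 9.83% were called higher and 9.02% lower. Scaling by TMM set this balance, since 51.2% of the DEGs at D4 and 52.1% at D7 were higher with it and 69.3% and 70.4% were higher without it. Over the genes tested, the median change at D4 and D7 was -0.04 and 0.01 on the log2 scale with these factors and 0.25 and 0.31 without. Both comparisons use the same 2 control libraries. In bulk nerve RNA, a change in the number of cells of a type and a change in RNA per cell cannot be told apart.

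Of the 10 members, 7 were upregulated at D4, 7 at D7 and 0 were downregulated at either day, where all 10 estimates were above 0. The 6 called at both days were Fos, Fosl1, Fosl2, Junb, Jund and Atf3, while Fosb was called at D4 only, Egr3 at D7 only, and Egr1 and Myc at neither. The median log2 fold change of the 10 was 1.63 at D4 and 1.31 at D7. Both injured libraries lay above both control libraries for 10 of 10 members at D4 and for 8 of 10 at D7, where the exceptions were Fosb and Myc. Such separation was seen in 36.9% of all genes tested at D4 and in 37.2% at D7.

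**Figure D1:**
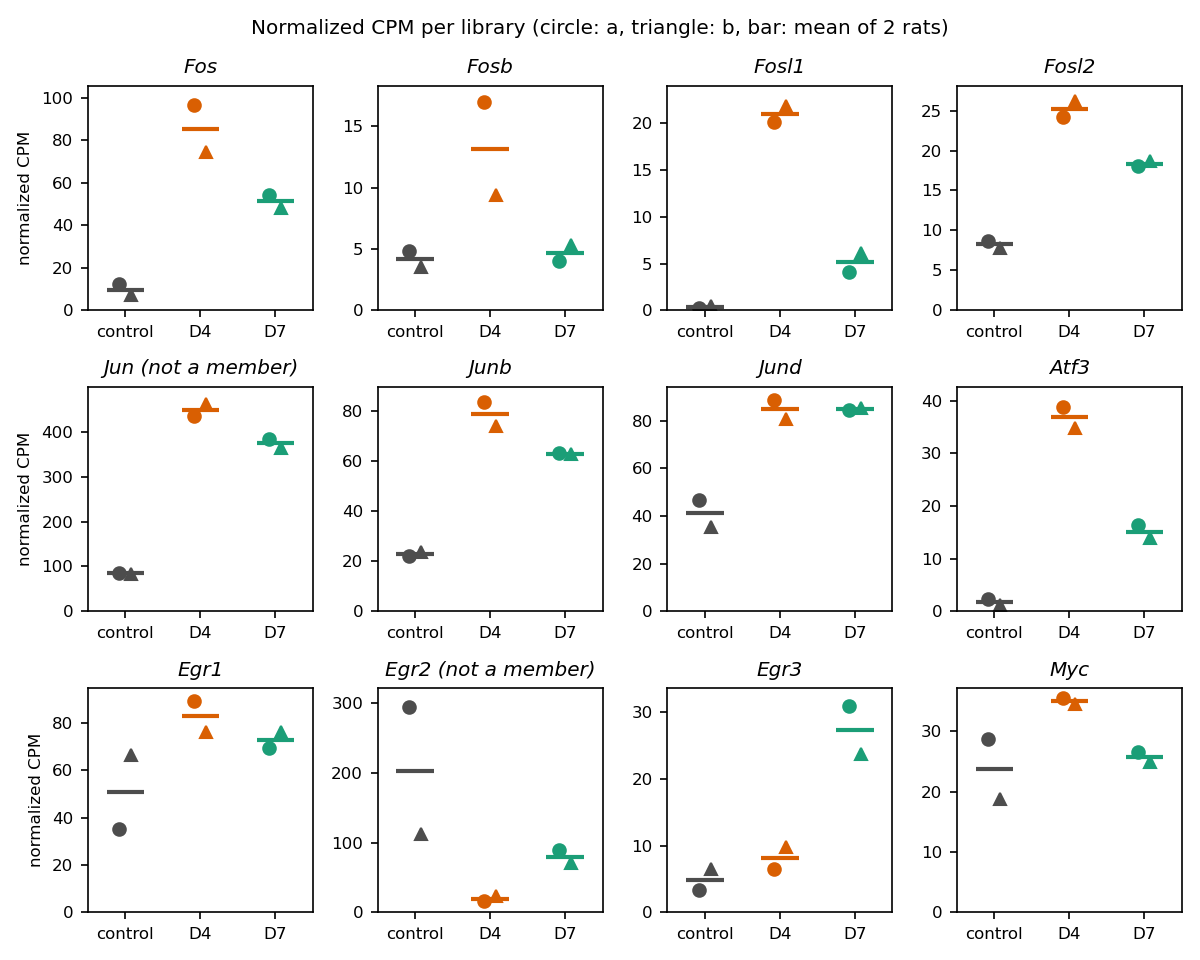
Normalized CPM (y axes, linear and from 0) of the 10 members and of their relatives Jun and Egr2 in the 2 control, 2 D4 and 2 D7 libraries, with circles for library a, triangles for library b and a bar at the mean of the 2 rats. Fosl1 and Atf3 peaked at D4 and stayed above control at D7, Egr3 was highest at D7, and Egr2 was the only gene plotted that lay below both control libraries in all 4 injured libraries.

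Within the Fos family, Fosl1 changed most. Fosl1, which encodes Fra-1, a Fos protein without a transactivation domain, was close to absent in control nerve, with 4 and 8 fragments counted, or 0.206 and 0.482 CPM. It stood at 20.1 and 21.8 CPM on D4 and at 4.13 and 6.18 CPM on D7. The groups did not overlap, and the D4 libraries stood above both D7 libraries. The log2 fold change of Fosl1 was 5.94 (SE 0.39, 61.5-fold, edgeR adjusted p = 0.000215) at D4 and 3.92 (SE 0.40, 15.1-fold, adjusted p = 0.00113) at D7. The control level rests on few fragments, so the size of these folds is less precise than the D4 and D7 levels.

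Fos, the founding member of the family, gave 12.3 and 7.24 CPM in control, 96.7 and 74.5 CPM on D4 and 54.4 and 48.3 CPM on D7. The groups did not overlap, and the lowest injured library was several times the highest control. Fos was upregulated 8.71-fold at D4 (log2 fold change 3.12, SE 0.27, edgeR adjusted p = 0.000454) and 5.23-fold at D7 (log2 fold change 2.39, SE 0.27, adjusted p = 0.00147).

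Fosl2, which encodes Fra-2, differed at most 1.10-fold between the rats of a group. It gave 8.65 and 7.84 CPM in control, 24.1 and 26.2 CPM on D4 and 18.0 and 18.7 CPM on D7. Its log2 fold change was 1.61 (SE 0.13, 3.05-fold, edgeR adjusted p = 0.000341) at D4 and 1.15 (SE 0.13, 2.22-fold, adjusted p = 0.00140) at D7.

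Fosb, best known from activity-induced neurons, behaved otherwise. It gave 4.84 and 3.56 CPM in control, 17.0 and 9.38 CPM on D4 and 3.99 and 5.29 CPM on D7, so that the D4 rats differed 1.81-fold from each other and the D7 rats overlapped with the controls. Fosb was upregulated 3.12-fold at D4 (log2 fold change 1.64, SE 0.35, edgeR adjusted p = 0.0118). The call was lost without control library b (adjusted p = 0.0528) or D4 library a (adjusted p = 0.0633). At D7 the log2 fold change was 0.14, with a 95% interval from -0.73 to 1.01 (edgeR adjusted p = 0.780).

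Among the Jun proteins, Junb, which often opposes Jun in growth control, gave 22.0 and 23.8 CPM in control, 83.6 and 74.1 CPM on D4 and 63.5 and 62.7 CPM on D7. The groups did not overlap. Junb was upregulated 3.44-fold at D4 (log2 fold change 1.78, SE 0.10, edgeR adjusted p = 0.000167) and 2.76-fold at D7 (log2 fold change 1.46, SE 0.10, adjusted p = 0.000445). Jund, the Jun protein expressed in many resting tissues, had the smallest change of the 7 members called at D4, just past the 2-fold limit. It gave 46.7 and 35.5 CPM in control, 88.8 and 80.7 CPM on D4 and 84.5 and 85.4 CPM on D7. Its log2 fold change was 1.04 (SE 0.14, edgeR adjusted p = 0.00239) at D4 and 1.05 (SE 0.15, adjusted p = 0.00319) at D7. Without control library b the change of Jund was 0.86 at either day, and without D4 library a it was 0.97 at D4, each under the 2-fold limit.

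Jun itself is outside the 10 members and is given as the partner that completes the family. It gave 86.0 and 84.4 CPM in control, 434 and 462 CPM on D4 and 383 and 364 CPM on D7. Jun was upregulated 5.26-fold at D4 (log2 fold change 2.40, SE 0.09, edgeR adjusted p = 0.000114) and 4.39-fold at D7 (log2 fold change 2.13, SE 0.09, adjusted p = 0.000217).

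Atf3, a stress-induced factor of the ATF/CREB family, showed the change nearest in size to that of Fosl1. It gave 2.42 and 1.27 CPM in control (47 and 21 fragments), 38.9 and 34.9 CPM on D4 and 16.3 and 13.9 CPM on D7. The 3 groups did not overlap. Atf3 was upregulated 19.7-fold at D4 (log2 fold change 4.30, SE 0.28, edgeR adjusted p = 0.000215) and 8.08-fold at D7 (log2 fold change 3.01, SE 0.28, adjusted p = 0.000858).

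The Egr genes followed different courses. Egr1 gave 35.3 and 66.7 CPM in control, 89.4 and 76.4 CPM on D4 and 69.3 and 76.3 CPM on D7. All injured libraries stood above the controls, but control library b lay closer to D7 library a than to the other control. The log2 fold change was 0.70 at D4 (95% interval 0.01 to 1.39, edgeR adjusted p = 0.0895) and 0.51 at D7 (95% interval -0.17 to 1.20, adjusted p = 0.198). The call depended on 1 control rat, since without control library b Egr1 was called at both days, with a log2 fold change of 1.23 (edgeR adjusted p = 0.00319) at D4 and 1.04 (adjusted p = 0.00663) at D7.

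Egr3, which is known from muscle spindles and from T cells and acts on many of the same sites as Egr1, was the late member. It gave 3.30 and 6.45 CPM in control, 6.57 and 9.79 CPM on D4 and 30.9 and 23.7 CPM on D7. The highest control and the lowest D4 library almost touched, whereas both D7 libraries stood far above the rest. Egr3 was upregulated 5.63-fold at D7 (log2 fold change 2.49, SE 0.36, edgeR adjusted p = 0.00377). At D4 its log2 fold change was 0.76 (95% interval -0.12 to 1.64, edgeR adjusted p = 0.136), and it was called there only without control library b (1.31, adjusted p = 0.0352).

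Egr2, the myelin regulator outside the 10 members, went the other way. It gave 294 and 112 CPM in control, 16.5 and 23.0 CPM on D4 and 89.7 and 70.3 CPM on D7. Egr2 was downregulated 10.3-fold at D4 (log2 fold change -3.36, SE 0.48, edgeR adjusted p = 0.00258), and at D7 its log2 fold change of -1.34 (SE 0.44) did not pass (adjusted p = 0.0562).

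Myc, a driver of growth and biosynthesis genes, gave 28.7 and 18.9 CPM in control, 35.5 and 34.6 CPM on D4 and 26.7 and 24.9 CPM on D7. The D4 libraries lay above all others, and the D7 libraries lay between the 2 controls. Its log2 fold change was 0.56 at D4 (95% interval 0.08 to 1.04, edgeR adjusted p = 0.0620) and 0.11 at D7 (95% interval -0.37 to 0.60, adjusted p = 0.677).

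The D7 vs D4 comparison asked how the members differed between the days. Fosl1 and Atf3 were lower at D7 and Egr3 was higher, and the other 7 members were not called. Among all genes tested, 0.494% were called lower and 1.68% higher at D7 than at D4. Fosl1 was 4.07-fold lower (log2 fold change -2.02, SE 0.28, edgeR adjusted p = 0.0250) and Atf3 was 2.44-fold lower (log2 fold change -1.29, SE 0.23, adjusted p = 0.0411). Egr3 was 3.33-fold higher (log2 fold change 1.74, SE 0.34, edgeR adjusted p = 0.0491). Without D4 library a, D4 library b or D7 library a, edgeR called 0 of the 10 members, while 5, 6 and 6 members had an unadjusted p under 0.05. Without D7 library b, only Fosl1 was called. DESeq2 on all 6 libraries called 4 members.

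Both D7 libraries lay below both D4 libraries for 8 of 10 members, which was the case for 29.1% of all genes tested. The exceptions were Egr3 and Jund. The median log2 difference of the 10 members between the days was -0.45, against 0.01 for all genes tested. Fosb had a difference of -1.50 that did not pass (edgeR adjusted p = 0.0681) and passed with DESeq2 (adjusted p = 0.00232). The differences of Fos (-0.74, edgeR adjusted p = 0.137), Fosl2 (-0.46, adjusted p = 0.0886) and Junb (-0.32, adjusted p = 0.120) were under 2-fold and not called. Egr1 differed by -0.19 (95% interval -0.87 to 0.50) and Myc by -0.44 (95% interval -0.92 to 0.03). Jund had the difference nearest 0, with an estimate of 0.00 and a 95% interval from -0.34 to 0.35 (edgeR adjusted p = 0.992).

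**Figure D2:**
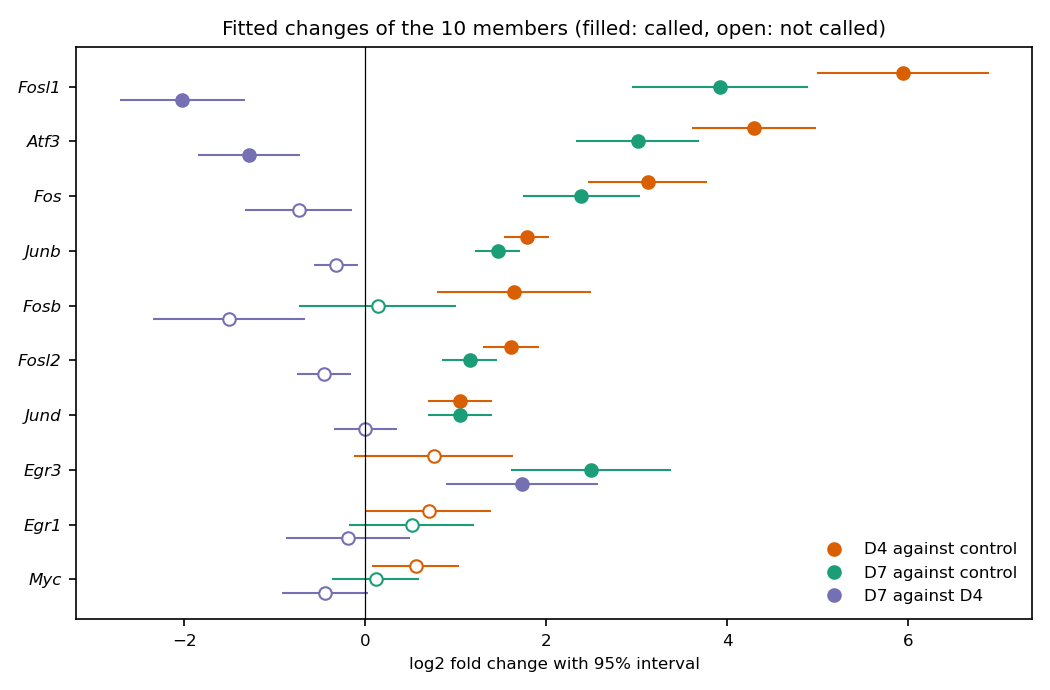
Fitted log2 fold changes (x axis) of the 10 members with 95% intervals from the edgeR fit of 6 libraries, for each injured group against control and for D7 relative to D4, with filled points for called changes and open points for those not called. The members are ordered by their change at D4, from Fosl1 with 5.94 down to Myc with 0.56, and Egr3 is the only member whose D7 change is called while its D4 change is not.

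Levels of different genes were compared within libraries as FPKM, which corrects for gene length. In control nerve the highest member was Jund with a mean of 21.3 FPKM, followed by Egr1 with 14.3, Junb with 11.2, Fosl2 with 9.68, Myc with 8.86, Fos with 5.36, Egr3 with 1.15, Fosb with 0.558, Atf3 with 0.354 and Fosl1 with 0.182 FPKM. The range of Egr1 over the 2 libraries overlapped those of Jund, Junb, Fosl2 and Myc, and the ranges of Fosl2 and Myc and of Atf3 and Fosl1 overlapped, so the order within those pairs was not resolved. On D4 Fos was highest with 57.5 FPKM, a range that overlapped that of Jund with 53.9 FPKM. On D7 the order was led by Jund with 54.2 FPKM, Junb with 37.9 and Fos with 34.6, whose ranges did not overlap. Fosl1, at or next to the lowest rank in control, was the seventh on D4 with 13.5 FPKM. The deposited FPKM of Fosl2 correspond to a length of 744 bases in a gene span of 18060 bases, and those of Fosb to 6563 bases, so the order of these 2 against the others depends on the lengths used.

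The make-up of the Fos family in FPKM differed between control and injured nerve. The 4 genes summed to 17.5 and 14.1 FPKM in control, 115 and 103 FPKM on D4 and 65.5 and 64.8 FPKM on D7. Fosl2 took 57.5% and 66.2% of that sum in control, 30.0% and 36.5% on D4 and 39.4% and 41.8% on D7. Fos took 38.3% and 28.6% in control, 56.4% and 48.5% on D4 and 55.6% and 50.6% on D7. Fosl1 held 0.612% and 1.82% in control, 11.2% and 13.6% on D4 and 4.04% and 6.19% on D7, while Fosb never exceeded 3.64%. For Fos, Fosl2 and Fosl1 the shares in injured and control libraries did not overlap. The shares rest on the length of 744 bases behind the FPKM of Fosl2. In fragments, with no length correction, Fos was counted 239 and 120 times and Fosl2 168 and 130 times in the control libraries.

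The Jun family of Jun, Junb and Jund summed to 58.7 and 54.6 FPKM in control, 256 and 255 FPKM on D4 and 223 and 220 FPKM on D7. The share of Jun was 40.9% and 44.2% in control and between 57.8% and 62.5% in the 4 injured libraries. Jund took 40.9% and 34.2% of the sum in control and between 20.1% and 24.9% after the crush, although its own level was higher there. Junb stayed between 17.0% and 21.6% in all 6 libraries. The summed Jun family stood at 3.36 and 3.88 times the summed Fos family in control, 2.23 and 2.47 times on D4 and 3.41 and 3.39 times on D7. These ratios also depend on the length of 744 bases behind the FPKM of Fosl2. With 2 rats per group no separate test of these shares was made. Deposited FPKM carry no TMM factor, which lowers the control sums relative to CPM and leaves the shares within a library unaffected.

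**Figure D3:**
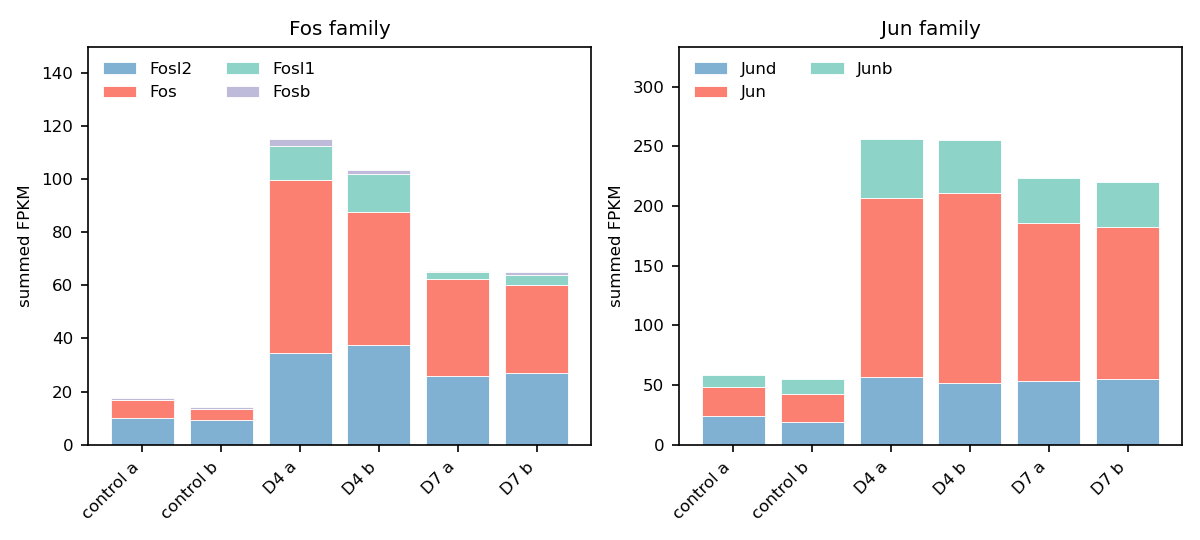
Summed FPKM (y axis, from 0) of the Fos family (left) and of the Jun family (right) in each of the 6 libraries, with stacked parts for each gene. With FPKM of Fosl2 based on 744 bases, Fosl2 is the largest part of the Fos family in both control libraries and Fos in all 4 injured libraries. Jun is the largest part of the Jun family in all 6 libraries, by little in control library a (24.02 FPKM against 23.99 for Jund).

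Among Egr1, Egr2 and Egr3, Egr2 made up 88.2% and 60.1% of the summed FPKM in control nerve, between 14.4% and 20.8% on D4 and between 41.4% and 47.7% on D7. Egr1 made up 11.0% and 36.9% in control, 80.6% and 71.4% on D4 and 38.0% and 46.4% on D7. Egr3 held 0.863% and 3.01% in control, 5.00% and 7.73% on D4 and 14.3% and 12.2% on D7. In the shares of Egr1 and Egr2 the 2 control rats differed more from each other than the 2 rats of D4 or of D7.

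Related genes were counted from lists of textbook members, which were chosen with earlier results of these data known. Of 27 other AP-1 and bZIP partner genes tested, 5 rose and 1 fell at D4, and 2 rose and 1 fell at D7. In D7 vs D4 edgeR called 0 of them, with 9 at an unadjusted p under 0.05. Their median log2 fold change was 0.07 at D4 and 0.09 at D7. Beside Jun, the upregulated genes included Batf (2.39, SE 0.66, edgeR adjusted p = 0.0288 at D4, on 13 and 3 control fragments), Cebpb, a factor of inflammation and differentiation (1.96 at D4, adjusted p = 0.00358), and Nfil3 (1.17 at D4, adjusted p = 0.00128). Nfil3 was named after its value was seen. Atf5 was downregulated at both days (-1.24 and -1.44, edgeR adjusted p = 0.00203 and 0.00165).

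Of 21 other immediate early genes tested, 4 rose and 5 fell at D4, and 2 rose and 4 fell at D7, with a median log2 fold change of -0.07 and -0.56. Gadd45a, a stress and DNA repair gene, had the largest rise, 11.3-fold at D4 (log2 fold change 3.50, SE 0.16, edgeR adjusted p = 0.000120) and 3.95-fold at D7. It was 2.87-fold lower at D7 than at D4 (adjusted p = 0.0117). Gadd45b (1.65 at D4, edgeR adjusted p = 0.00227) and Ier5 (1.52 at D4, adjusted p = 0.00174, and 1.70 at D7, adjusted p = 0.00165) rose as well. Arc, a synaptic immediate early gene, was 6.09-fold lower at D4 (edgeR adjusted p = 0.00112) and 6.91-fold lower at D7 (adjusted p = 0.00132). Nab1, which binds and represses Egr factors, was 3.10-fold lower at D4 and 3.17-fold lower at D7 (edgeR adjusted p = 0.000165 and 0.000332). Cyr61 was called lower at D7 (-1.46, edgeR adjusted p = 0.0191). The counts of this list were completed by Ier3 (1.01 at D4, edgeR adjusted p = 0.00849, and lower at D7 than at D4) and by the nuclear receptor genes Nr4a1 (-1.04 at D4, adjusted p = 0.0110) and Nr4a2 (-1.57 at D4, adjusted p = 0.00141, and -1.25 at D7, adjusted p = 0.00425), which were named after their values were seen.

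Of 23 upstream kinases and serum response factors tested, 2 rose and 1 fell at each day, with median log2 fold changes of -0.04 and -0.07. Among all genes tested, 11.2% were called higher and 10.7% lower at D4, and 9.83% and 9.02% at D7, so these counts do not set the list apart. The p38 kinases Mapk13 (2.94 at D4, edgeR adjusted p = 0.00561) and Mapk11 (2.66 at D4, adjusted p = 0.00204) rose at both days. Both rest on few fragments. Mapk13 was counted 9 and 4 times in control, 88 and 53 times on D4 and 27 and 28 times on D7. Mapk11 was counted 27 and 12 times in control. Map2k6, a kinase that activates p38, was lower at D4 (-1.94, edgeR adjusted p = 0.000646) and higher at D7 than at D4 (1.08, adjusted p = 0.0375). Elk4, a partner of serum response factor, stood at 0.00 on the log2 scale at D4 (95% interval -0.38 to 0.38) and was 5.48-fold lower at D7 (-2.45, edgeR adjusted p = 0.000399), and the difference between the days was called (-2.46, adjusted p = 0.00983).

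Of 18 tested genes commonly described as AP-1 responsive, 13 were upregulated at each day, 1 was downregulated at D4 and 2 at D7. Their median log2 fold change was 2.19 at D4 and 1.38 at D7, and 4, Gdnf, Spp1, Shh and Met, were called lower at D7 than at D4. Over all genes tested, 11.2% were called higher at D4 and 9.83% at D7. Since the list was chosen with earlier results of these data known, its counts do not test AP-1 activity. Ngfr, the p75 neurotrophin receptor, was upregulated 87.7-fold at D4 (log2 fold change 6.46, SE 0.13, edgeR adjusted p = 5.78e-05) and 49.3-fold at D7. Gdnf, a neurotrophic factor of repair Schwann cells, was counted 3 and 2 times in control, 504 and 722 times on D4 and 103 and 98 times on D7, and no fold is given against so few counts. The protease gene Mmp9 was counted 4 and 0 times in control, 76 and 134 times on D4 and 23 and 82 times on D7. Hbegf, an EGF receptor ligand, was 3.91-fold lower at D4 (edgeR adjusted p = 0.00147), and Hbegf and the secreted phosphoprotein gene Spp1 were lower at D7 (-1.06 and -1.93, adjusted p = 0.0159 and 0.00563).

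Of 12 Myc network partners tested, 3 rose at D4 and 2 at D7, and 0 were called lower at either day. Their median log2 fold change was -0.15 at D4 and 0.12 at D7, with 4 and 7 of the 12 estimates above 0. The lowest estimates were -2.69 at D4 and -2.87 at D7. Mycl rose 5.08-fold at D4 and 4.27-fold at D7 (edgeR adjusted p = 0.00115 and 0.00232), Mycn 3.94-fold and 6.22-fold (adjusted p = 0.00269 and 0.00135) and Mlxip 2.13-fold at D4 (adjusted p = 0.000336). Myc itself was not called at either day. Of 12 genes commonly described as Myc responsive, 1 rose at each day, Cdca7 (1.64 and 1.37, edgeR adjusted p = 0.00353 and 0.00865). Their median log2 fold change was 0.61 at D4 and 0.30 at D7.

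**Figure D4:**
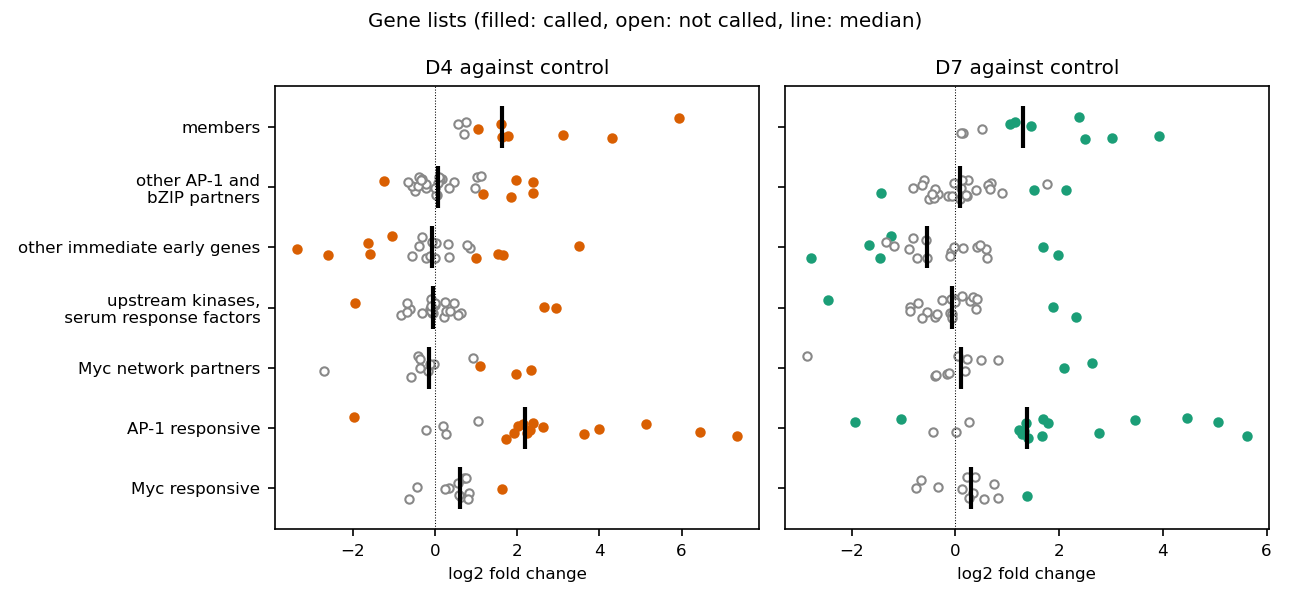
Fitted log2 fold changes (x axis) at D4 (left) and D7 (right) against control of the tested genes of 7 lists, with filled points for called genes, open points for the rest and a line at each list's median. The medians of the members (1.63 at D4), the AP-1 responsive genes (2.19) and the Myc responsive genes (0.61) lie to the right of 0. Those of the other AP-1 and bZIP partners, other immediate early genes and upstream kinases at D4 lie near 0, and that of the Myc network partners is -0.15. The fitted value of Gdnf, the highest point at D4, rests on 3 and 2 control fragments.

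Markers of other cells moved with the same groups. All 7 macrophage markers tested were upregulated at D4 and 6 at D7, and their summed FPKM ranged from 64.4 to 70.4 in control, 288 to 312 on D4 and 207 to 248 on D7. All 5 proliferation markers were upregulated at both days, with sums of 6.50 to 12.0 in control, 178 to 201 on D4 and 114 to 122 on D7. Of 8 Schwann cell markers, 5 were downregulated at D4 and 3 at D7 and 1, Ngfr, was upregulated, and 3 were higher at D7 than at D4. Pmp22, a gene of peripheral myelin, gave 18953 and 12891 CPM in control, 257 and 308 CPM on D4 and 2039 and 1236 CPM on D7. Of 4 T cell markers, Cd3e rose and Cd3g fell at D4 and 3 rose at D7. These calls rest on few fragments. Cd3e was counted 3 and 4 times in control and 15 and 20 times on D4, and Cd3g 21 and 22 times and 5 and 5 times. The 4 markers summed to 1.68 to 2.17 FPKM in control, 1.31 to 1.51 on D4 and 7.14 to 7.72 on D7, and Cd3d was at 0 in both controls. The part of macrophages, dividing cells, Schwann cells and T cells in the changes of the members was not tested.

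Neutrophil markers, 2 of 5 of which could be tested, summed to between 0.877 and 10.3 FPKM over the libraries with Camp at 0 throughout, with Cxcr2 lower at D4 and Mmp8 higher at D7. Of 3 endothelial markers, Kdr and Tek fell at D4 and all 3 fell at D7. Of 4 fibroblast markers, Col1a1 fell at D7. Of 4 skeletal muscle markers tested, Myh7 fell at each day and 3 were not called, with 2 estimates above 0 at D4. The 5 muscle markers counted summed to 4.86 and 20.3 FPKM in control, 31.6 and 3.94 on D4 and 6.09 and 8.74 on D7, so they were uneven between rats. Of 5 adipocyte markers, edgeR called 0, with 0 at an unadjusted p under 0.05, while their sum was 402 to 468 FPKM in control, 71.6 to 141 on D4, 4.33 in D7 library a and 208 in D7 library b, lower in all 4 injured libraries than in both controls. Of 6 heat shock genes, only some of which tissue handling can raise, Hspa8 rose and Hspa1b fell at each day. Hspa8 held only 13 and 4 fragments in the control libraries, so its rise rests on few counts. Its injured libraries gave 39 and 45 fragments (D4) or 48 and 52 (D7). The sum of the 6 genes ranged from 431 to 803 FPKM in control, 825 to 864 on D4 and 1055 to 1159 on D7. Most of that sum was Hspa5, a chaperone of the endoplasmic reticulum, with 262 and 467 FPKM in control, 647 and 697 on D4 and 912 and 788 on D7, which was not called at either day. The part of these cells and genes in the changes of the members was not tested.

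Long noncoding RNAs (lncRNAs) of the same libraries were listed within 10 kb of 5 members, 12 transcripts in all, of which 3 overlapped the member. Of the 12, 6 were tested. NONRATT001432.2, a transcript of 1498 bases at chromosome 1 from 220835103 to 220836600 (Rnor_6.0), starts 36 bases past the listed span of Fosl1 (chromosome 1, 220826560 to 220835066). It was counted 3 and 0 times in control, 75 and 71 times on D4 and 9 and 17 times on D7. D4 was highest, then D7 and then control, as for Fosl1. It was called higher at D4 (edgeR adjusted p = 0.0186), with a ratio of normalized counts of 43.5 and a 95% exact counting interval from 14.6 to 213. At D7 the ratio was 8.10 (95% counting interval 2.48 to 41.8) and was not called (edgeR adjusted p = 0.116), nor was the difference between the days (adjusted p = 0.246). Across all lncRNAs tested, 5.19% were called higher at D4 and 3.00% at D7. The intervals cover counting error only, and since the strand used in counting was not stated, fragments of this transcript and of the Fosl1 gene end cannot be told apart. The D4 call was lost without D4 library a or b.

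The other 5 tested lncRNAs were not called in any comparison. NONRATT002354.2, which partly overlaps Fosb, was counted 18 and 1 times in control, 48 and 5 times on D4 and 2 and 3 times on D7, so that 1 library of control and 1 of D4 held most of its fragments. NONRATT001434.2 lies 8197 bases from Fosl1, with 134 and 119 fragments in control, 174 and 180 on D4 and 145 and 133 on D7. NONRATT014581.2, NONRATT014147.2 and NONRATT014582.2 lie between 6296 and 8577 bases from Junb, and their log2 fold changes at D4 were -0.05, 0.43 and -0.37 against 1.78 for Junb.

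By the deposited annotation (Rnor_6.0), the members lie on 8 chromosomes. Fos (chromosome 6, 109300433 to 109303299) and Fosl2 (chromosome 6, 25598936 to 25616995) share a chromosome, as do Fosb (chromosome 1, 80214494 to 80221710) and Fosl1. Junb lies at chromosome 19, 26092974 to 26094756, Jund at chromosome 16, 20485029 to 20486707, Atf3 at chromosome 13, 109817728 to 109849632, Egr1 at chromosome 18, 27657628 to 27661429, Egr3 at chromosome 15, 51756736 to 51760715, and Myc at chromosome 7, 102586313 to 102591237. No 2 members lie at the same locus, so no member's counts could be shared with another by overlap.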

How the data were processed

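Total RNA of 6 sciatic nerves was sequenced by the authors, who mapped reads with HISAT2 2.0.4 to Rnor_6.0, assembled and counted them with StringTie 1.3.0, and named edgeR, as listed in the submitters' processing notes and methods. The deposited counts are whole, unnormalized fragment counts per gene or lncRNA transcript, made by the authors. FPKM columns, also deposited by the authors, rest on the same counts, and the mRNA values follow each library's total with no TMM factor, so FPKM served for levels, shares and marker sums and for no test. The deposited lncRNA table also gives each transcript's length.

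Groups came from the sample labels. Counts were filtered with filterByExpr, scaled with TMM and fitted with edgeR 4.0.16 (R 4.3.3, quasi-likelihood, 1 fit of 6 libraries, mRNAs and lncRNAs apart). P-values were adjusted by Benjamini-Hochberg over every tested feature. A call needed at least a 2-fold change and, after adjustment, p under 0.05. SE is the absolute log2 fold change over the square root of F. No set test was run. The scripts were tested on simulated data. Promoters came from RefSeq (GRCr8), for letters and not for coordinates of the files. Python 3.11.15, pandas 2.3.3, scipy 1.17.1 and matplotlib 3.10.9 were used.

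The members and the gene lists were chosen with earlier results of these data known. Named genes were all 10 members, Jun and Egr2, up to 3 called genes with the largest rise and up to 3 with the largest fall in each list among genes with a mean of at least 1 FPKM in a group, and lncRNAs within 10 kb of a member with a mean of at least 10 counts. Marker lists are given by counts and, for most, sums. Some named genes are not reported here. Alternatives were no fold threshold, each library left out in turn, a replicate block by library letter, fits restricted to the 2 groups compared, a minimum of 10 counts per library or no filter at all, library totals without TMM, and DESeq2 1.42.0.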

Additional observations from a re-analysis of the deposited data

Results flagged for a closer look

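For 3 members the change after the crush differed between the days, by the edgeR test of D7 against D4. Fosl1 was lower at D7 than at D4 by a log2 fold change of -2.02 (SE 0.28, edgeR adjusted p = 0.0250), with D4 libraries at 20.1 and 21.8 CPM and D7 libraries at 4.13 and 6.18 CPM. Atf3 was lower by a log2 fold change of -1.29 (SE 0.23, edgeR adjusted p = 0.0411), and Egr3 was higher by 1.74 (SE 0.34, edgeR adjusted p = 0.0491). Over the alternatives, the adjusted p ranged from 8.96e-09 to 0.195 for Fosl1, from 7.06e-06 to 0.262 for Atf3 and from 0.000213 to 0.280 for Egr3. Each group held 2 libraries, so no single library was tested as standing apart.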

How the results depend on the processing

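With 2 rats per group, the number of members called was 7 at D4 (5 to 7 over the alternatives) and 7 at D7 (6 to 7). With at least 10 counts in every library it was 6 at each day, since Fosl1 was left out by that filter. Between D7 and D4 it was 3, with 4 by DESeq2 or without the low-count filter, 2 without TMM factors, with at least 10 counts in every library or with the replicate block, and 0 to 3 when each library was left out in turn (0 without D4 library a, D4 library b or D7 library a). With the library letter as a replicate block, 7 and 7 members were called at D4 and D7, and Egr3 was no longer called between the days (1.79, adjusted p = 0.0657). The letters name different rats, and the deviations of libraries with the same letter correlated by 0.01, 0.19 and -0.13 in the 3 pairs of groups. Fosb was called between the days by DESeq2 (-1.54) and without the low-count filter.

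Signs turned only for changes that were not called. For Jund between the days they were -0.032 by DESeq2, -0.0021 without the low-count filter, -4.7e-05 with at least 10 counts in every library, -0.0099 with only the 2 groups compared, and -0.064 to 0.073 with a library left out. Leaving out a library gave -0.078 to 0.38 for Fosb and -0.16 to 0.45 for Myc at D7. Among lncRNAs at D4, it gave -1.11 to 4.38 for NONRATT002354.2, -0.38 to 0.18 for NONRATT014581.2 (0.12 without TMM factors) and -0.10 to 0.80 for NONRATT014147.2. At D7 it gave -2.84 to 1.06 for NONRATT002354.2 and -0.015 to 0.093 for NONRATT001434.2 (-0.0037 by DESeq2). Between the days it gave -0.36 to 0.20 for NONRATT014581.2 and -0.33 to 0.56 for NONRATT014147.2. The cause was not tested. Over all genes, DESeq2 called 521 and the main test 331 between the days, and without the fold threshold 6715, 5705 and 710 genes passed at D4, D7 and between the days, against 3333, 2863 and 331. Without D4 library a or D4 library b edgeR called 0 genes between the days, with 2054 and 2296 at an unadjusted p under 0.05, and without D7 library a it called 99.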
